A study of Rattus norvegicus with 12 samples.

Results

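MAP kinase phosphatases of the Dusp family and the Sprouty and Spred proteins are inducible brakes on the MAP kinase cascades. The genes described here are Dusp1, Dusp4, Dusp5, Dusp6, Dusp8, Dusp10, Spry1, Spry2, Spry4 and Spred1. They were taken by symbol, 10 of the 17312 gene symbols that each library lists, and all 10 were among the 10518 genes that reached 1 FPKM (fragments per transcript length and library size) in at least 3 libraries and were tested.

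Growth factor receptors and integrins activate Ras, Raf, MEK and ERK in turn, while stress signals run through separate kinases to JNK and p38. Several Dusp and Sprouty genes are themselves switched on by active ERK, so that their messages serve as a common readout of recent pathway activity. In heart muscle cells these cascades are known for their part in growth responses to load.

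The cells were cardiomyocytes of Wistar rats, described in the series as ventricular cells of newborn animals. All 12 libraries came from cells given an siRNA, and they formed 4 groups of 3. The groups were Wnt5a siRNA with cell stretch (stretched Wnt5a siRNA), control siRNA with cell stretch (stretched control), Wnt5a siRNA without stretch (unstretched Wnt5a siRNA) and control siRNA without stretch (unstretched control). Wnt5a is a secreted Wnt ligand, and the series asks what it does in the response of cardiac myocytes to stretch. The labels do not tie the 3 libraries of a group to separate cultures or animals. The p-values below therefore rest on library-to-library variation that could be technical. With 3 libraries against 3, an exact permutation test of a single gene cannot go below p = 0.1, and the tests given are those of limma fitted over all genes. Log2 changes are of FPKM + 1 and are given ± SE, and a gene is called changed, higher or lower where the adjusted p is under 0.05.

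Promoter sequences are shown for 4 of the genes. Dusp1, Dusp6 and Spry2 are those whose response to stretch differed between the siRNAs, and Dusp5 is the one that was lower in all 4 comparisons between groups. Each run is the 250 bases before the annotated start, 5′ to 3′ on the strand of the gene, from RefSeq on the rat assembly GRCr8, which is not the build rn6 of the expression values. Capitals mark matches to the motifs named after them. The windows are chr10:17184603-17184852 on the plus strand for Dusp1, chr7:35979354-35979603 on the plus strand for Dusp6, chr15:89111927-89112176 on the minus strand for the upstream of the 2 Spry2 starts, and chr1:262543524-262543773 on the plus strand for Dusp5.
Dusp1: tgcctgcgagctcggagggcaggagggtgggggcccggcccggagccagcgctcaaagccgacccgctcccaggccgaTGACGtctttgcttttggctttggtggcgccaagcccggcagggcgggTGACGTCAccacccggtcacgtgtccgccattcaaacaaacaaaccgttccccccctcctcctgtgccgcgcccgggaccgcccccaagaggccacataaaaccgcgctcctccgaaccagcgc
Dusp6: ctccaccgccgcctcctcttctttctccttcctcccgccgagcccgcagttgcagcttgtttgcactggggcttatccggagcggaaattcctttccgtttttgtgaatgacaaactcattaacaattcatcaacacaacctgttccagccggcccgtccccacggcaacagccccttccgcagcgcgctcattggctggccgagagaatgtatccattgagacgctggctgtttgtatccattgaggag
Spry2: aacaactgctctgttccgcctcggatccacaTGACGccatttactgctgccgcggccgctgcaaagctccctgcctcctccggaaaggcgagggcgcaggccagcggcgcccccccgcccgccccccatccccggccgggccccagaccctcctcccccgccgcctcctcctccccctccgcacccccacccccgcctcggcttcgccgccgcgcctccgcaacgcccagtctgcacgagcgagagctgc
Dusp5: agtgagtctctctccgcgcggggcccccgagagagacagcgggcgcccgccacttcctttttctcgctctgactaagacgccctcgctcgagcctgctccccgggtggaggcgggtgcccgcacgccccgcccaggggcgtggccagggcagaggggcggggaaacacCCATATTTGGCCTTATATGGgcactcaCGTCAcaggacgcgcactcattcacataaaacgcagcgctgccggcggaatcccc

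The motifs searched on both strands were the full cAMP response element (CRE) TGACGTCA and the CRE core TGACG that the full element holds on both strands. The others were the AP-1 site TGANTCA, a strict ETS form CCGGAAG, the TEAD core CATTCC, and the CArG box, the site of serum response factor, by its consensus. Shorter or variant ETS forms were not searched for. Positions are counted from the annotated start to the first base of a match. In Dusp1 a full CRE began 124 bases before the start, in a stretch where CRE cores began at 124 and 121, and a further core began at 172. Of all 33469 promoter windows of this length, 1.59% held the full CRE and 18.2% the core. Dusp5 held CArG boxes at 82 and 72 bases, one directly after the other, and a CRE core at 55, where 1.5% of all windows held a CArG box. Spry2 held a CRE core at 219 bases, and the Dusp6 window had no match. The AP-1, ETS and TEAD forms searched were in none of the 10 windows of 9 of the genes, beside 6.34%, 7.27% and 12.1% of all windows. This does not show that the windows lack other ETS letters. A match describes letters in a window and is not a binding site.

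**Figure D1:**
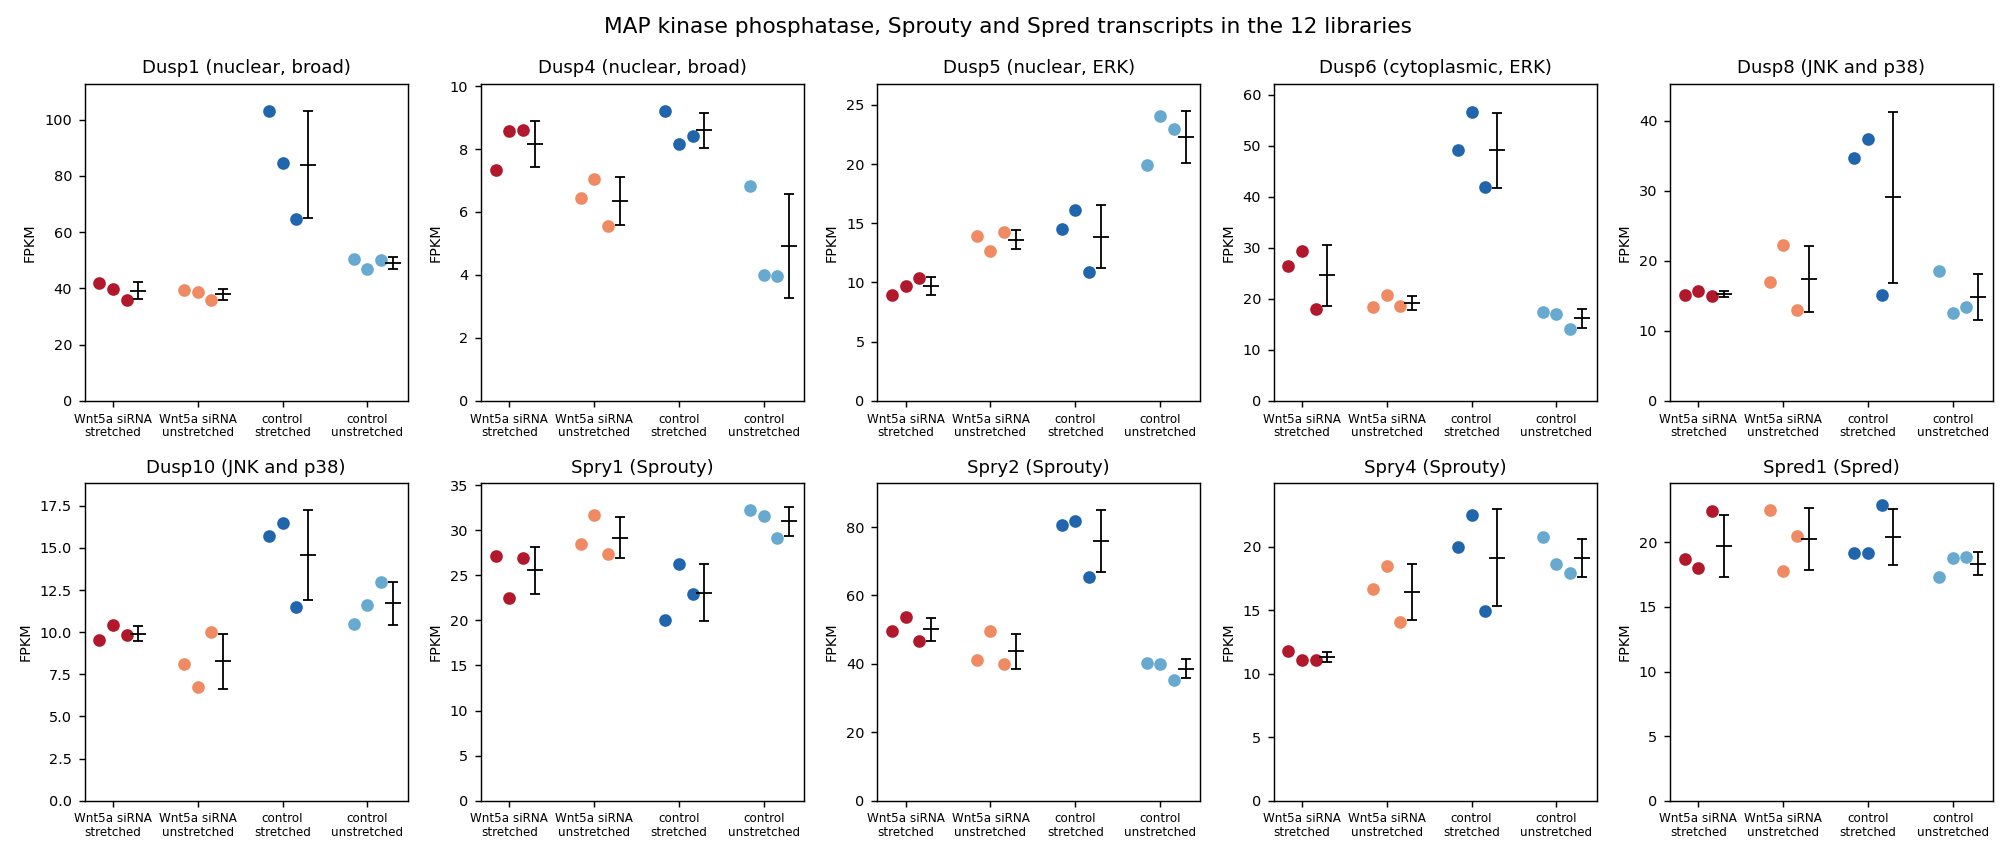
FPKM of the 10 genes (vertical axes from 0, a separate scale for each gene) in the 12 libraries, by group. Points are libraries and bars are the mean ± SD of 3. Dusp1, Dusp6 and Spry2 were above every other group in the 3 stretched control libraries, and Dusp5 was highest in the 3 unstretched control libraries.

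Before the genes themselves, 3 facts of the libraries bear on all that follows. Wnt5a stood at 6.22, 5.88 and 5.56 FPKM in the stretched Wnt5a siRNA libraries, against 6.52, 5.66 and 8.22 FPKM in the stretched control libraries. Without stretch it had 6.15, 4.60 and 6.81 FPKM with Wnt5a siRNA, against 12.3, 10.4 and 11.6 FPKM with control siRNA. The siRNA came with less Wnt5a message without stretch (log2 change −0.87 ± 0.14 SE, adjusted p = 0.00142), while under stretch the groups overlapped (−0.17 ± 0.14, adjusted p = 0.387). Stretched control library 3 stood apart from its group, with an SD of log2 differences of 0.393 and 0.426 from the other two, where all other replicate pairs had 0.205 to 0.288. Markers of other cell types also moved. Fibroblast markers summed to 9981 to 10540 FPKM in stretched Wnt5a siRNA, 5833 to 9714 in stretched control, 5996 to 6205 in unstretched Wnt5a siRNA and 4090 to 4605 in unstretched control libraries. With stretch they rose for 7 of 9 tested under control siRNA and for 8 of 9 under Wnt5a siRNA, and they were higher for 6 of 9 with Wnt5a siRNA under stretch. Cardiomyocyte markers summed to 8309 to 9820, 8062 to 13180, 10300 to 10460 and 13550 to 15920 FPKM in the same order of groups, and 5 of 9 tested fell with stretch under control siRNA while 1 rose. Macrophage and leukocyte markers summed to 331.6 to 358, 293.3 to 483.4, 131.8 to 142.3 and 160.7 to 206.5 FPKM in that order, and with stretch 9 of 9 tested rose under Wnt5a siRNA and 6 of 9 under control siRNA. Smooth muscle markers gave 3268 to 3772, 4221 to 7117, 4364 to 6464 and 4596 to 5686 FPKM, and 6 of 8 were lower with Wnt5a siRNA under stretch. Endothelial markers summed to 41.96 to 71.19, 21.73 to 32.74, 10.46 to 27.43 and 13.95 to 27.87 FPKM, and with stretch 5 of 7 tested rose under Wnt5a siRNA and 1 of 7 under control siRNA. Of the 10 fibroblast markers, Col1a2 is listed at 0 in every library, which can be a failed estimate since Col1a1 had 1580 to 3520 FPKM. In stretched control library 3 the fibroblast sum was 9714 FPKM, against 5925 and 5833 FPKM in the other two, and the cardiomyocyte sum was 8062 FPKM, against 11230 and 13180 FPKM. The part of these cell type markers in the results below was not tested, and in bulk RNA fewer cells of a type and less RNA per cell cannot be told apart.

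Stretch with control siRNA raised 5 of the 10 genes and lowered 2. The rises were in Dusp6, Spry2, Dusp8, Dusp1 and Dusp4 and the falls in Dusp5 and Spry1, so that the group split rather than moving as one. Of all genes tested, 54.3% changed, 27.5% upwards and 26.8% downwards. The libraries of the groups did not overlap for 7 of the 10 genes, 5 higher and 2 lower, beside 58.0% of all genes, 29.0% in each direction. The median log2 change of the 10 was 0.50, beside 0.011 for all genes tested. With Wnt5a siRNA, stretch raised none of the 10 and lowered 2, Dusp5 and Spry4, where 16.0% of all genes changed, 8.44% upwards and 7.59% downwards. At an unadjusted p under 0.05 limma also gave 0 higher. No overlap was found for 4 of the 10 there, 1 higher and 3 lower, beside 40.7% of all genes, 20.1% higher and 20.6% lower, and their median log2 change was 0.0027, beside −0.0073 for all genes.

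Under stretch, Wnt5a siRNA came with lower levels of 6 of the 10 genes, Dusp1, Dusp6, Spry4, Spry2, Dusp10 and Dusp5, and with higher levels of none, also at an unadjusted p under 0.05 in limma. Of all genes 27.3% differed in this comparison, and 14.2% of all genes were lower. The same count of 6 had no overlap between the groups, all lower, beside 37.6% of all genes, 18.6% higher and 19.0% lower. The median log2 change of the 10 was −0.54, beside 0.0021 for all genes. Without stretch, 3 of the 10 were lower with Wnt5a siRNA, Dusp5, Dusp10 and Dusp1, and none was higher at an adjusted or unadjusted p under 0.05, where 28.5% of all genes differed, 13.9% lower. No overlap was seen there for 4 of the 10, 3 lower and 1 higher, beside 49.4% of all genes, 24.7% in each direction. The response to stretch itself differed between the siRNAs for Dusp6, Spry2 and Dusp1, 3 of 10 with 23.8% of all genes called, and for each the change was smaller with Wnt5a siRNA.

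Stretched Wnt5a siRNA cells, set against unstretched control cells, differed for 6 of the 10 genes. Dusp4, Dusp6 and Spry2 were higher and Dusp5, Spry4 and Spry1 lower, where 46.1% of all genes differed, 22.9% higher and 23.2% lower. The libraries did not overlap for 8 of the 10, 3 higher and 5 lower, beside 60.5% of all genes, 30.0% higher and 30.5% lower. The log2 differences were 0.66 ± 0.16 for Dusp4 (adjusted p = 0.00484) and −0.71 ± 0.13 for Spry4 (adjusted p = 0.00103). For Spry1 the difference was −0.27 ± 0.10 (adjusted p = 0.0469), a call at the threshold that was lost when any library other than the stretched control ones or unstretched Wnt5a siRNA 2 was left out, with adjusted p of 0.0528 to 0.189. Dusp1 had no overlap but missed the threshold (−0.32 ± 0.13, adjusted p = 0.0556), which it passed without stretched control library 1 (adjusted p = 0.0175) or 3 (0.00475). These comparisons share their control libraries with those above and are not independent of them.

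Summed over the 10 genes, FPKM were 216.7, 218.4 and 204.9 in stretched Wnt5a siRNA libraries, against 365.6, 369.1 and 278.5 in stretched control libraries. Without stretch the sums were 211.9, 225.8 and 199.1 with Wnt5a siRNA and 234.5, 225.2 and 218.7 with control siRNA. Only the stretched control libraries stood clear of the others, and among them library 3 was the lowest. The authors' FPKM themselves sum to more under stretch, 676014 to 709021 over all genes in stretched control against 588509 to 598628 in unstretched control libraries. When each library was rescaled to the same sum, the median log2 change of all genes with stretch under control siRNA moved to −0.20, and the split of called genes was 1450 higher and 4506 lower, against 2889 higher and 2822 lower as deposited. On that scale the median of all genes for Wnt5a siRNA under stretch moved to 0.10. Of the 7 calls with stretch, only that of Dusp8 was lost on that scale (adjusted p = 0.0609), while the 4 remaining rises were 1.32 for Dusp6, 0.73 for Spry2, 0.52 for Dusp1 and 0.53 for Dusp4 on the log2 scale.

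Dusp6, the cytoplasmic phosphatase that acts on ERK alone, made the largest rise of the 10 with stretch. It had 26.5, 29.3 and 17.9 FPKM in stretched Wnt5a siRNA libraries, against 49.1, 56.5 and 41.8 FPKM in stretched control libraries. Unstretched cells had 18.3, 20.8 and 18.6 FPKM with Wnt5a siRNA, against 17.5, 17.0 and 14.1 FPKM with control siRNA. Every stretched control library lay above all 9 others, and stretched Wnt5a siRNA library 3 fell among the unstretched libraries. With control siRNA the stretched mean was 303% of the unstretched one (log2 change 1.54 ± 0.16 SE, adjusted p = 1.09e-05). With Wnt5a siRNA the change was 0.31 ± 0.16 (adjusted p = 0.211), with a 95% interval of −0.04 to 0.66, and of the alternatives run it passed the threshold only without stretched Wnt5a siRNA library 3 (0.52, adjusted p = 0.0249). The difference between these responses was −1.23 ± 0.23 (adjusted p = 0.00396). Under stretch the Wnt5a siRNA mean was 50% of the control mean (log2 change −0.99 ± 0.16, adjusted p = 0.00245). Stretched Wnt5a siRNA cells still lay above unstretched control cells, by 0.55 ± 0.16 on the log2 scale (adjusted p = 0.0141), a call lost without unstretched control library 3 (adjusted p = 0.0628) or without stretched Wnt5a siRNA library 1 (0.059) or 2 (0.0669).

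Spry2, a Sprouty protein that dampens signalling from receptor tyrosine kinases to Ras and ERK, followed the same order of groups as Dusp6. Its levels were 49.7, 53.6 and 46.8 FPKM in stretched Wnt5a siRNA libraries, against 80.6, 81.7 and 65.4 FPKM in stretched control libraries. In unstretched cells they were 41.2, 49.6 and 40.1 FPKM with Wnt5a siRNA, against 40.4, 40.1 and 35.3 FPKM with control siRNA. The stretched control libraries were again clear of all others, while the remaining 3 groups lay close to each other. Stretch with control siRNA brought the mean to 197% (log2 change 0.95 ± 0.10, adjusted p = 1.51e-05). With Wnt5a siRNA the change was 0.20 ± 0.10 (adjusted p = 0.223), with a 95% interval of −0.03 to 0.42. The responses differed by −0.76 ± 0.15 (adjusted p = 0.00498). Under stretch the Wnt5a siRNA mean was 65.9% of the control mean (−0.59 ± 0.10, adjusted p = 0.00356). The stretched Wnt5a siRNA level exceeded that of unstretched control cells by 0.37 ± 0.10 (adjusted p = 0.0123), a call lost without unstretched control library 3 (adjusted p = 0.0568) or stretched Wnt5a siRNA library 2 (0.0519).

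Dusp1, a nuclear phosphatase for ERK, p38 and JNK, was the most abundant of the 10 in stretched control cells by FPKM, which are per length. It had 41.8, 39.6 and 35.9 FPKM in stretched Wnt5a siRNA libraries, against 103, 84.7 and 64.7 FPKM in stretched control libraries. The unstretched libraries had 39.3, 38.6 and 35.7 FPKM with Wnt5a siRNA, against 50.5, 46.7 and 49.9 FPKM with control siRNA. Levels with Wnt5a siRNA were below every control library whether the cells were stretched or not. Stretch raised Dusp1 to 171% with control siRNA (log2 change 0.74 ± 0.13, adjusted p = 0.000402). With Wnt5a siRNA the change was 0.04 ± 0.13 (adjusted p = 0.857), with a 95% interval of −0.23 to 0.32. The responses differed by −0.70 ± 0.18 (adjusted p = 0.0169), and under stretch the Wnt5a siRNA mean was 46.6% of the control mean (−1.06 ± 0.13, adjusted p = 0.00132). Without stretch the siRNA difference was −0.36 ± 0.13 (adjusted p = 0.0493). That call sat at the threshold: it was lost when any library other than stretched control 1 or 3 was left out, with adjusted p of 0.056 to 0.128.

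**Figure D2:**
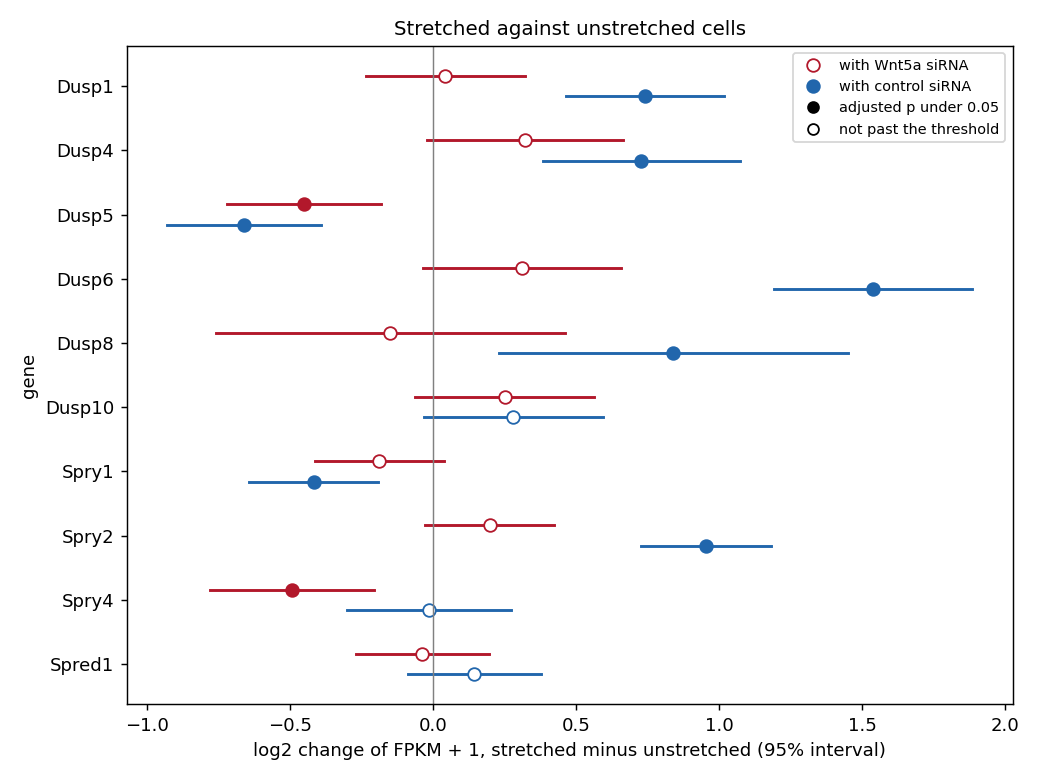
Log2 change of FPKM + 1 with stretch (horizontal axis, 95% intervals) for each of the 10 genes, with Wnt5a siRNA and with control siRNA. Filled points have an adjusted p under 0.05. With control siRNA 5 genes were higher and 2 lower, and with Wnt5a siRNA none was higher and 2 were lower.

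Dusp5, the nuclear phosphatase specific for ERK, ran against Dusp6 with stretch under control siRNA, while both were lower with Wnt5a siRNA under stretch. Dusp5 had 8.96, 9.68 and 10.4 FPKM in stretched Wnt5a siRNA libraries, against 14.5, 16.1 and 10.9 FPKM in stretched control libraries. Unstretched cells had 13.9, 12.7 and 14.3 FPKM with Wnt5a siRNA, against 19.9, 24.1 and 23.0 FPKM with control siRNA. Unstretched control libraries were the highest and stretched Wnt5a siRNA libraries the lowest, with no overlap between those groups and any other. Stretched control and unstretched Wnt5a siRNA libraries overlapped. Stretch lowered Dusp5 with control siRNA to 62.2% of the unstretched mean (log2 change −0.66 ± 0.12, adjusted p = 0.000737). It also lowered Dusp5 with Wnt5a siRNA (−0.45 ± 0.12, adjusted p = 0.0275), and the responses differed by 0.21 ± 0.18 (adjusted p = 0.408), with a 95% interval of −0.17 to 0.59. Wnt5a siRNA came with lower Dusp5 without stretch (−0.67 ± 0.12, adjusted p = 0.00273) and under stretch (−0.46 ± 0.12, adjusted p = 0.0187). Stretched Wnt5a siRNA cells against unstretched control cells gave a log2 change of −1.12 ± 0.12 (adjusted p = 3.28e-05). The call with stretch under Wnt5a siRNA was lost without unstretched Wnt5a siRNA library 1 (adjusted p = 0.0863) or 3 (0.0855) or stretched Wnt5a siRNA library 1 (0.111) or 2 (0.0714). That of Wnt5a siRNA under stretch was lost without stretched control library 1 (adjusted p = 0.0757) or 2 (0.073) or stretched Wnt5a siRNA library 1 (0.0667), on the rescaled values (0.0507) and in a fit to the compared libraries alone (0.0688).

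Dusp4, a nuclear phosphatase close to Dusp1 in its targets, had the lowest mean FPKM of the 10 in all 4 groups. It had 7.32, 8.58 and 8.61 FPKM in stretched Wnt5a siRNA libraries, against 9.21, 8.15 and 8.41 FPKM in stretched control libraries. Without stretch it had 6.45, 7.05 and 5.55 FPKM with Wnt5a siRNA, against 6.83, 4.0 and 3.96 FPKM with control siRNA. All 6 stretched libraries were above all 6 unstretched ones, and the siRNA groups overlapped on either side. The rise with stretch under control siRNA was 0.73 ± 0.16 (adjusted p = 0.00201). With Wnt5a siRNA the change was 0.32 ± 0.16 (adjusted p = 0.192), and the responses differed by −0.41 ± 0.22 (adjusted p = 0.203), so a difference between the siRNAs was not shown. Unstretched control library 1, the highest of its group, weighed on these values. Without it the responses differed by −0.62 (adjusted p = 0.0171) and unstretched Wnt5a siRNA cells lay 0.56 above unstretched control cells (adjusted p = 0.00781).

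Dusp8 and Dusp10 code for phosphatases that prefer JNK and p38 to ERK. Dusp8 had 15.1, 15.7 and 15.0 FPKM in stretched Wnt5a siRNA libraries, against 34.7, 37.4 and 15.1 FPKM in stretched control libraries. In unstretched cells it had 17.0, 22.3 and 13.0 FPKM with Wnt5a siRNA, against 18.6, 12.6 and 13.4 FPKM with control siRNA. Stretched control libraries 1 and 2 were high, and library 3 lay among the other groups. The rise with stretch under control siRNA was 0.84 ± 0.28 (adjusted p = 0.0234) and hung on single libraries. It was 1.24 (adjusted p = 0.00014) without stretched control library 3, and the call was lost without unstretched control library 2 (adjusted p = 0.0784) or 3 (0.0705) or stretched control library 1 (0.0929) or 2 (0.096), and in a fit to the compared libraries alone (0.0603). With Wnt5a siRNA under stretch the difference of −0.79 ± 0.28 missed the threshold (adjusted p = 0.0546). Without stretched control library 3 this difference was −1.19 (adjusted p = 0.000422), and the responses to stretch differed by −1.39 (adjusted p = 0.00186) in place of −0.99 ± 0.40 (adjusted p = 0.0892).

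Dusp10 had 9.54, 10.4 and 9.83 FPKM in stretched Wnt5a siRNA libraries, against 15.7, 16.5 and 11.5 FPKM in stretched control libraries. Without stretch it had 8.09, 6.73 and 9.99 FPKM with Wnt5a siRNA, against 10.5, 11.6 and 13.0 FPKM with control siRNA. Libraries with Wnt5a siRNA were below those with control siRNA at either condition. The siRNA difference was −0.50 ± 0.14 under stretch (adjusted p = 0.0253) and −0.47 ± 0.14 without it (adjusted p = 0.0298). With stretch Dusp10 passed no threshold under either siRNA, at 0.28 ± 0.14 with control siRNA (adjusted p = 0.118) and 0.25 ± 0.14 with Wnt5a siRNA (adjusted p = 0.267). Leaving out stretched control library 3 gave 0.43 with control siRNA (adjusted p = 0.0137). The siRNA call under stretch was lost without stretched control library 1 (adjusted p = 0.0999) or 2 (0.0937) or stretched Wnt5a siRNA library 1 (0.0749) or 3 (0.0767), on the rescaled values (0.0618) and in a fit to the compared libraries alone (0.0504). The one without stretch was lost without unstretched control library 2 (adjusted p = 0.0708) or 3 (0.115) or unstretched Wnt5a siRNA library 1 (0.0803) or 2 (0.124).

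**Figure D3:**
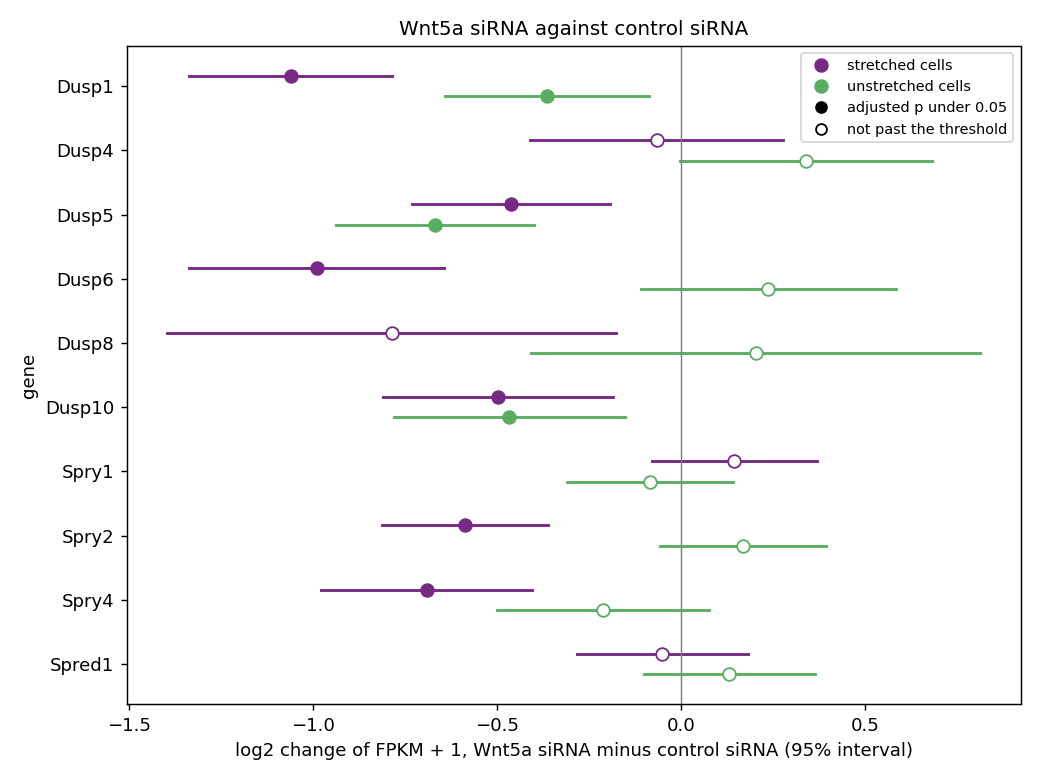
Log2 difference of FPKM + 1 between Wnt5a siRNA and control siRNA (horizontal axis, 95% intervals) for each of the 10 genes, in stretched and in unstretched cells. Filled points have an adjusted p under 0.05. Under stretch 6 genes were lower with Wnt5a siRNA, and without stretch 3 were.

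The Sprouty genes took 3 different courses. Spry4, like Spry2 an inhibitor of receptor tyrosine kinase signalling to ERK, had 11.8, 11.1 and 11.1 FPKM in stretched Wnt5a siRNA libraries, against 20.0, 22.5 and 14.9 FPKM in stretched control libraries. In unstretched cells it had 16.7, 18.5 and 14.1 FPKM with Wnt5a siRNA, against 20.8, 18.6 and 17.9 FPKM with control siRNA. The stretched Wnt5a siRNA libraries were below all 9 others, which overlapped. With control siRNA stretch left Spry4 at −0.01 ± 0.13 (adjusted p = 0.937), with a 95% interval of −0.30 to 0.27. With Wnt5a siRNA it fell with stretch (−0.49 ± 0.13, adjusted p = 0.025), and under stretch it was lower with Wnt5a siRNA than with control siRNA (−0.69 ± 0.13, adjusted p = 0.00476). The responses differed by −0.48 ± 0.19, which missed the threshold (adjusted p = 0.0816) and passed it without stretched control library 3 (−0.64, adjusted p = 0.00566) or unstretched Wnt5a siRNA library 3 (−0.58, adjusted p = 0.0445). The fall with stretch under Wnt5a siRNA was lost without any one of the stretched Wnt5a siRNA libraries or of unstretched Wnt5a siRNA libraries 1 and 2, with adjusted p of 0.0639 to 0.0936.

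Spry1, another inhibitor of the same step, fell with stretch under control siRNA. It had 27.2, 22.5 and 26.9 FPKM in stretched Wnt5a siRNA libraries, against 20.0, 26.3 and 22.9 FPKM in stretched control libraries. Without stretch the levels were 28.5, 31.7 and 27.4 FPKM with Wnt5a siRNA, against 32.2, 31.6 and 29.2 FPKM with control siRNA. Every stretched library lay below every unstretched one, and siRNA groups overlapped. The change with stretch was −0.42 ± 0.10 with control siRNA (adjusted p = 0.0046) and −0.19 ± 0.10 with Wnt5a siRNA (adjusted p = 0.245), with a difference of 0.23 ± 0.15 between them (adjusted p = 0.274). Wnt5a siRNA made no called difference to Spry1 under stretch (0.14 ± 0.10, adjusted p = 0.313) or without it (−0.08 ± 0.10, adjusted p = 0.573).

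Spred1, a membrane protein that works with neurofibromin to hold back Ras, passed the threshold in none of these comparisons. Its levels were 18.7, 18.0 and 22.4 FPKM in stretched Wnt5a siRNA libraries, against 19.2, 19.2 and 22.9 FPKM in stretched control libraries. Unstretched cells had 22.5, 17.8 and 20.5 FPKM with Wnt5a siRNA, against 17.3, 18.8 and 18.9 FPKM with control siRNA. The highest of the 4 group means was 1.11 times the lowest. With control siRNA the stretched libraries were all above the unstretched ones, but the change of 0.14 ± 0.11 was not called (adjusted p = 0.276), and on the rescaled values its sign turned (−0.07). The 95% interval of that change was −0.09 to 0.38.

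Among the 10 genes, the profiles over the 12 libraries that lay closest were those of Dusp4 and Spry2, with a root mean square difference of centred log2 values of 0.258, and of Dusp6 and Spry2, with 0.259. Dusp5 and Dusp6 lay farthest apart at 0.857. Measured the same way over 8506 genes, the nearest profiles to Dusp6 were Fosl1 (0.137), which codes for an AP-1 protein, and Ripk2 (0.138). The nearest to Spry2 were Fam131b and Slc27a4 (0.0937 each), to Dusp1 Tsc22d1 (0.115) and Dcaf5 (0.118), and to Dusp5 Dlc1 (0.102) and Acadl (0.103). Spry4 lay nearest to Nuak1 (0.0935) and Tns1 (0.0988), Spry1 to Tfeb (0.0897) and Sv2a (0.0903), and Spred1 to Zc3h7a (0.0809) and Ttc3 (0.0822). Alg13 (0.13) was among the nearest to Dusp4. For Dusp8 the nearest were Rasl11b (0.156) and Stard5 (0.16), and for Dusp10 Mdm2 (0.123) and Usp53 (0.125). These distances depend on the size of a gene's changes as well as on their pattern, and they carry no test.

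The other Dusp, Sprouty and Spred genes were set beside the 10. Of 18 on that list 14 were tested, and Dusp28 was not analysed here. With stretch under control siRNA 6 rose and 3 fell, beside 54.3% of all genes called, with a median log2 change of 0.23. That split was 2 higher and 3 lower on the rescaled values. Dusp22 (−0.88 ± 0.14, adjusted p = 0.000213) and Dusp19 (−0.80 ± 0.14, adjusted p = 0.000562) fell, and Dusp26 rose (1.55 ± 0.31, adjusted p = 0.0012). Dusp26 had 2.72, 3.59 and 1.53 FPKM in stretched Wnt5a siRNA libraries, against 11.8, 7.83 and 8.49 FPKM in stretched control libraries. The unstretched libraries had 3.12, 6.19 and 2.19 FPKM with Wnt5a siRNA and 3.66, 2.72 and 1.48 FPKM with control siRNA. As for Dusp6, every stretched control library thus lay above all libraries of the other groups. Under stretch, 3 of the 14 were lower with Wnt5a siRNA, among them Dusp26 (−1.55 ± 0.31, adjusted p = 0.00597) and Dusp27 (−0.80 ± 0.19, adjusted p = 0.0111), and 1 was higher, Dusp19 (0.69 ± 0.14, adjusted p = 0.00665). That share of 4 of 14 lay near the 27.3% of all genes. These 4 calls became 7 without stretched control library 3 and 2 without stretched control library 1. In those fits 44.4% and 10.4% of all genes were called.

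Kinases and adaptors that lie upstream were counted next. Of 28 genes of the Ras, Raf, MEK and ERK cascade 26 were tested, and with stretch under control siRNA 9 rose and 4 fell, a share near the 54.3% of all genes, with a median log2 change of 0.00053. On the rescaled values 1 rose and 13 fell. Rasa1, a GTPase activator that turns Ras off, rose (0.71 ± 0.09, adjusted p = 6.09e-05), and Gab1, a docking protein of growth factor receptors, fell (−0.76 ± 0.12, adjusted p = 0.000185). With Wnt5a siRNA under stretch 3 were higher and 6 lower, beside 27.3% of all genes called. Rps6ka2, an ERK-activated kinase, was higher (0.78 ± 0.14, adjusted p = 0.00362) and Sos2, an exchange factor for Ras, lower (−0.53 ± 0.10, adjusted p = 0.00483). Sos2 was also lower with Wnt5a siRNA without stretch (−0.60 ± 0.10, adjusted p = 0.00185), and its responses to stretch differed by 0.06 ± 0.15 (adjusted p = 0.78). The count of 9 under stretch was 15 without stretched control library 3. It was 4 without stretched control library 1 or stretched Wnt5a siRNA library 3, and 5 without stretched control library 2 or stretched Wnt5a siRNA library 1. The share of all genes called moved as well. It was 44.4% without stretched control library 3, 10.4% without library 1 and 15.6% without library 2. Without stretched Wnt5a siRNA libraries 1 and 3 it was 16.2% and 12.1%. Stretch with Wnt5a siRNA changed none of the 26 past the threshold in limma, beside 16.0% of all genes, with the most abundant, Pebp1 and Rras, at 0.11 ± 0.08 (adjusted p = 0.4) and −0.33 ± 0.13 (adjusted p = 0.111), and at an unadjusted p under 0.05 there were 2 higher and 3 lower.

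Of 26 genes of the p38, JNK and ERK5 cascades 20 were tested, while Mapk7 and Map2k3 are listed at 0. With stretch under control siRNA 2 rose and 9 fell, a share near the 54.3% of all genes, with a median log2 change of −0.23, and on the rescaled values none rose and 15 fell. Mapk8ip3, a JNK scaffold (−0.78 ± 0.07, adjusted p = 6.21e-06), Map3k4 (−0.82 ± 0.09, adjusted p = 1.88e-05) and Map2k6, a kinase that activates p38 (−1.35 ± 0.21, adjusted p = 0.000195), were among those that fell. Map2k6 had 2.12, 1.49 and 2.2 FPKM in stretched Wnt5a siRNA libraries, against 0.428, 0.154 and 0.589 FPKM in stretched control libraries. These stretched control values are all under the 1 FPKM of the filter, so its changes rest on low values. Map2k6 was higher with Wnt5a siRNA under stretch (1.08 ± 0.21, adjusted p = 0.0051). In that comparison 5 of the 20 were higher and 4 lower, beside 13.2% of all genes higher and 14.2% lower. Those 9 calls fell to 2 without stretched control library 1 or stretched Wnt5a siRNA library 3, to 3 without stretched control library 2 and to 4 without stretched Wnt5a siRNA library 1. In the same fits the share of all genes called fell to 10.4%, 12.1%, 15.6% and 16.2%, in that order.

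**Figure D4:**
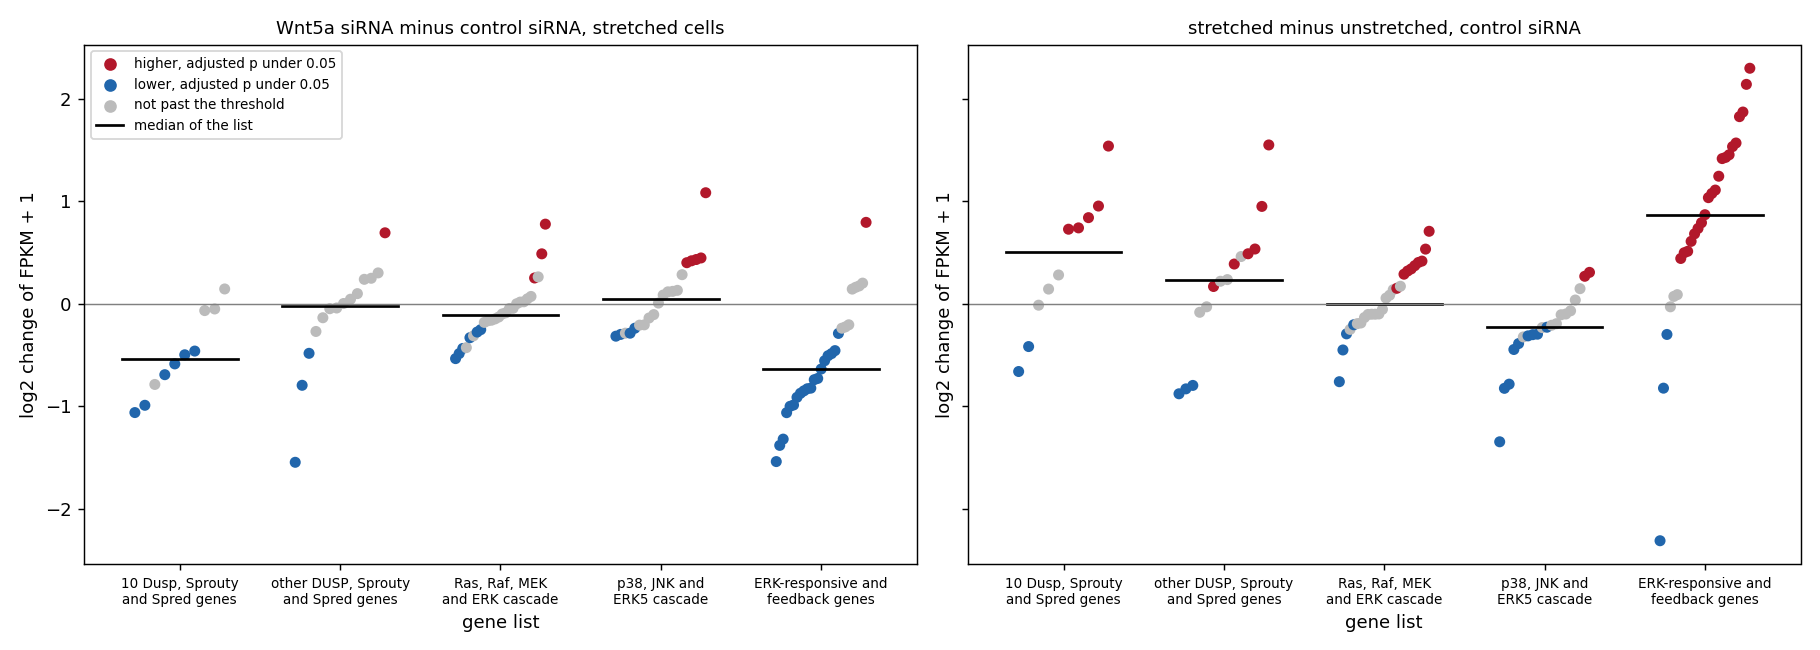
Log2 changes of FPKM + 1 (vertical axis) for the genes of 5 lists, for Wnt5a siRNA minus control siRNA in stretched cells and for stretched minus unstretched cells with control siRNA. Points are genes, coloured by adjusted p under 0.05, and lines are list medians. The lists were chosen with earlier results of these data known. The ERK-responsive genes had a median of −0.64 in the first and 0.87 in the second comparison.

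Transcripts known to respond to ERK, together with other receptor feedback inhibitors, gave the widest shift of the lists. The list was chosen with earlier results of these data known, so its counts describe the list and do not test it. Of 30 genes 27 were tested, and with stretch under control siRNA 21 rose and 3 fell, beside 54.3% of all genes called, with a median log2 change of 0.87. Under stretch 19 were lower with Wnt5a siRNA and 1 higher, beside 27.3% of all genes, with a median of −0.64. The response to stretch differed for 16, beside 23.8% of all genes. The change under Wnt5a siRNA minus that under control siRNA was negative for 14 and positive for 2. Epha4 was among the positive ones (2.06 ± 0.24, adjusted p = 0.000821), and its fall with stretch was called only with control siRNA. On the rescaled values 19 were higher and 3 lower with stretch, and 16 lower and 2 higher with Wnt5a siRNA under stretch.

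Ccnd1, which codes for cyclin D1 of the cell cycle, had 95.4, 117 and 77.4 FPKM in stretched Wnt5a siRNA libraries, against 128, 129 and 146 FPKM in stretched control libraries. In unstretched cells it had 51.9, 54.1 and 47.8 FPKM with Wnt5a siRNA, against 36.5, 38.1 and 33.3 FPKM with control siRNA. The groups did not overlap. Ccnd1 was called higher with stretch under either siRNA, while Dusp6 was called only with control siRNA. The rise of Ccnd1 was 0.89 ± 0.12 with Wnt5a siRNA (adjusted p = 0.000839) and 1.87 ± 0.12 with control siRNA (adjusted p = 1.08e-06), with a difference of −0.98 ± 0.17 (adjusted p = 0.00316). Sh2b3, an adaptor that restrains cytokine receptor signalling, had 18.8, 21.1 and 16.9 FPKM in stretched Wnt5a siRNA libraries, against 29.2, 31.9 and 28.7 FPKM in stretched control libraries. Its unstretched libraries had 18.8, 20.3 and 19.2 FPKM with Wnt5a siRNA, against 19.4, 19.1 and 19.3 FPKM with control siRNA. As with Dusp6 and Spry2, every stretched control library lay above all libraries of the other groups. The siRNA difference of Sh2b3 under stretch was −0.64 ± 0.08 (adjusted p = 0.00144). The immediate early genes Ier2 (−1.0 ± 0.16, adjusted p = 0.00242) and Fos (−0.73 ± 0.12, adjusted p = 0.00275) were also lower with Wnt5a siRNA under stretch. Fos was lower with Wnt5a siRNA without stretch as well (−0.575 ± 0.12, adjusted p = 0.00518). Its responses to stretch differed by −0.15 ± 0.17 (adjusted p = 0.545), so a difference between the siRNAs in that response was not shown. Of the ephrin receptors on the list, Epha2 rose with stretch under control siRNA (1.83 ± 0.20, adjusted p = 1.72e-05) and Epha4 fell (−2.31 ± 0.17, adjusted p = 1.82e-06). With Wnt5a siRNA, where stretch raised 8.44% of all genes, it raised 3 of the 27, Ccnd1, Rgs2 (0.68 ± 0.14, adjusted p = 0.00603) and Elk3 (0.33 ± 0.08, adjusted p = 0.0116), and lowered none, against 7 higher and 2 lower at an unadjusted p under 0.05. With the replicate number as a block, 4 rose and 1 fell, beside 16.1% of all genes called. The labels do not tie same-numbered libraries to each other. Without stretched control library 3 there were 6 calls, beside 25.0% of all genes.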

How the data were processed

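RNA sequencing of 12 libraries in 4 groups of 3 was analysed. The labels' protocols name miRNeasy for RNA extraction and a TruSeq stranded mRNA kit for library preparation, and the submitters' processing notes name TopHat2 2.1.1, Bowtie2, Cuffdiff 2.2.1 and the build rn6. The authors deposited FPKM per gene symbol. For annotation, scaling between libraries and strand setting, nothing was given in the sources used here, so overlapping and antisense genes are uncertain, and a gene listed at 0 may be one whose estimate failed. FPKM give no read numbers and the depth is unknown. Of 1523 low genes, 95.8% had values related by whole-number ratios (tolerance 0.05), and what 1 fragment is worth varied 1.21-fold between libraries. Precision thus rests on the spread between libraries.

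The values were put on the scale log2(FPKM + 1), which understates the change of low genes, and a gene was tested if 3 or more libraries reached 1 FPKM. With limma 3.58.1 (R 4.3.3), 1 mean per group was fitted over the 12 libraries, with a trended eBayes step. Tests were 2-sided, with Benjamini-Hochberg adjustment over the 10518 genes of each comparison and 0.05 as the threshold for a call. The comparison of stretched Wnt5a siRNA with unstretched control was added after the design. The fit was also run on simulated data with independent errors and few changed genes. Many more genes were called in these data, so that run does not show how reliable the calls here are. The 10 genes and the gene lists were chosen with earlier results of these data known. For each list and comparison, the text draws on at most 3 called genes, those with the smallest adjusted p, or where there was no call on at most 2 abundant ones. Likeness of profiles was the root mean square difference of centred log2 values among genes that reached 5 FPKM in 3 or more libraries and had no provisional symbol. A gene that this rule takes is not reported here. All 10 symbols matched RefSeq names on GRCr8, and 9 of the genes had a promoter entry.

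Alternatives tried were no filter, a pseudocount of 0.1, a filter at FPKM 5, median ratio scaling, rescaling to the same FPKM sum, quantile normalization, a replicate block, an untrended eBayes step, a fit to the compared libraries alone, and leaving out each library. Deviations from the group means of same-numbered libraries correlated at 0.143 to 0.242 over the 3 pairs of stretched and unstretched Wnt5a siRNA, all above 0.1, so the block is given beside results of stretch with Wnt5a siRNA where it changes them. In the other comparisons at least 1 pair was below 0.1, and calls that the block added there are alternatives only. The labels do not tie same-numbered libraries to each other, and these correlations do not show that they were paired.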

Additional observations from a re-analysis of the deposited data

Results flagged for a closer look

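Among the 10 genes and Wnt5a, the change with stretch differed between Wnt5a siRNA and control siRNA, by the interaction test of limma, for 3 of the 10 and for Wnt5a. Of all genes tested 23.8% were called, so 3 of 10 is a share near that of all genes. Genes of the lists passed the same test, among them Ccnd1 (−0.98) and 16 of the 27 ERK-responsive genes. The difference was −1.23 on the log2 scale for Dusp6, −0.76 for Spry2 and −0.70 for Dusp1, where stretch came with a smaller change under Wnt5a siRNA. For Wnt5a itself it was 0.70, with a fall with stretch under control siRNA (−0.68 ± 0.14, adjusted p = 0.00139) and no called change under Wnt5a siRNA (0.02 ± 0.14, adjusted p = 0.948). The call for Wnt5a was lost without unstretched control library 1 (adjusted p = 0.0513) or 3 (0.056), unstretched Wnt5a siRNA library 2 (0.0549), stretched control library 1 (0.0523) or stretched Wnt5a siRNA library 1 (0.0534).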

How the results depend on the processing

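Of the 50 results for the 10 genes in the 5 planned comparisons, 21 were called, and 14 of these kept their call in every alternative run. These were the changes with stretch under control siRNA of Dusp1, Dusp4, Dusp5, Dusp6, Spry1 and Spry2, the differences with Wnt5a siRNA under stretch of Dusp1, Dusp6, Spry2 and Spry4, that of Dusp5 without stretch, and the interactions of Dusp1, Dusp6 and Spry2. Over 438 alternatives of called results, 395 kept the call, 43 lost it and 0 changed sign. The count of the 10 genes changed by stretch with Wnt5a siRNA was 2 and ran from 0 to 2 when a library was left out. The share of all genes called was 16.0% and ran from 8.08% to 25.0%. The count with Wnt5a siRNA without stretch was 3, was 1 with no filter, and ran from 1 to 3 when a library was left out. Of all genes 28.5% were called there, 20.5% with no filter, and 16.8% to 37.5% when a library was left out. The interaction count was 3 and ran from 3 to 5 when a library was left out, while 23.8% and 15.0% to 34.6% of all genes were called. With the replicate number as a block it was 5, beside 24.4% of all genes. That block added Dusp8 (adjusted p = 0.0448) and Spry4 (0.0378). The block also called Dusp8 with Wnt5a siRNA under stretch (adjusted p = 0.0259). In the added comparison of stretched Wnt5a siRNA with unstretched control, the block called Dusp1 (adjusted p = 0.0268) and lost Spry1 (0.0612). It changed no other call of the 10 genes.

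The signs that turned were all of results that were not called. With libraries rescaled to the same FPKM sum, they were stretch with control siRNA for Spred1 (−0.0731), stretch with Wnt5a siRNA for Dusp1 (−0.0761) and Wnt5a (−0.0855), Wnt5a siRNA under stretch for Dusp4 (0.0334) and Spred1 (0.0555), the interaction for Dusp10 (0.0714), and stretched Wnt5a siRNA against unstretched control for Dusp8 (−0.0559) and Spred1 (−0.0176). When a library was left out, stretch with control siRNA gave −0.134 to 0.145 for Spry4, stretch with Wnt5a siRNA gave −0.00528 to 0.102 for Dusp1, −0.334 to 0.0349 for Dusp8, −0.13 to 0.0381 for Spred1 and −0.119 to 0.121 for Wnt5a, Wnt5a siRNA under stretch gave −0.102 to 0.00216 for Dusp4 and −0.143 to 0.0313 for Spred1, the interaction gave −0.18 to 0.0996 for Dusp10, and stretched Wnt5a siRNA against unstretched control gave −0.0476 to 0.216 for Dusp8. The cause was not tested. With 3 libraries per group and unknown depth, an uncalled result does not show that levels were alike.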
